A study of Mus musculus with 8 samples.

Results

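Transcripts of the Myc, Max and Mxd network were compared between mouse esophageal epithelial cells with a high and a low content of autophagic vesicles. The members were chosen by name and are the 10 genes Myc, Mycn, Mycl, Max, Mxd1, Mxd3, Mxd4, Mxi1, Mnt and Mlx, of 55276 gene symbols in the deposited count table. Earlier results of these data were known when the members were chosen. All 10 were found. Of these, 9 were among the 17344 genes that passed the filter on low counts, and Mycn did not pass.

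The cells came from C57BL6 mice 14 to 15 weeks old, with no transgene or drug named in the labels. The tissue layer enriched in epithelium was peeled off the muscle and dissociated, and live cells with integrin beta-1 on their surface were sorted by the dye Cyto-ID, which stains autophagic vesicles. Cells with weak staining form the Cyto-ID Low group and cells with strong staining the Cyto-ID High group, and the labels call both basal cells. Each of 2 female and 2 male animals (Female1, Female2, Male1, Male2) gave 1 library of each fraction, so there were 4 Low and 4 High libraries, with 26285150 to 29301054 counts each.

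Myc, Mycn and Mycl are transcription factors of the basic helix-loop-helix leucine zipper class that act as dimers with Max and bind the DNA sequence CACGTG, called the E-box, at genes for growth and division. The Mxd proteins, Mxi1 (a member of the Mxd family) and Mnt also dimerise with Max and bind the same sequence, but recruit the Sin3 corepressor and histone deacetylases. Mlx is the Max-like partner through which the glucose-sensing factors Mlxip and Mlxipl bind DNA, and it can also pair with Mxd1, Mxd4 and Mnt. In stratified epithelia Myc is known from the proliferating basal layer, and Mxd1 from cells that leave it.

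The dimers of the network bind CACGTG, and the promoters of the members were searched for it in windows from 250 bases before to 50 bases after the annotated start (RefSeq, build GRCm38.p6). The motif reads the same on both strands. The table held windows for 9 of the 10 members, and Myc had no entry. At least 1 window held CACGTG for 4 of these 9 genes, Max, Mlx, Mnt and Mxd4, beside 11.3% of the 11257 tested genes with an entry and 7.15% of all 32851 windows. In Max the motif began 3 bases before the start and in Mlx 40 bases before it. The windows of Max and Mlx, whose transcripts were higher in the High fraction, and of Mxd1 and Mxd3, which had the largest increase and decrease among the members and no CACGTG in the window, are shown 5′ to 3′ with the motif in capitals. Max lies on the minus strand at chr12:76962199-76962498, Mlx on the plus strand at chr11:101087040-101087339, Mxd1 on the minus strand at chr6:86669110-86669409 and Mxd3 on the minus strand at chr13:55329682-55329981.
Max: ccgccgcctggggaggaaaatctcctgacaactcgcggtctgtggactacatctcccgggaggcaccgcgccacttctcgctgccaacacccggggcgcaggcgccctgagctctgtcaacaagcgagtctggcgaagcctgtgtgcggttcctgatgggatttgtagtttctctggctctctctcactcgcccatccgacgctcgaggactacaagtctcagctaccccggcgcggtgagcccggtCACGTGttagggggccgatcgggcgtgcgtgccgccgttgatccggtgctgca
Mlx: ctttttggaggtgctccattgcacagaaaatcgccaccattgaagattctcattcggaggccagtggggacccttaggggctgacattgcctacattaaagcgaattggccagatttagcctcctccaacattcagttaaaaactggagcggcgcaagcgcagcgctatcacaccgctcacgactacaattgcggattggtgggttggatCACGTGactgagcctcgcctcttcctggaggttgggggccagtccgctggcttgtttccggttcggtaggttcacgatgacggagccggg
Mxd1: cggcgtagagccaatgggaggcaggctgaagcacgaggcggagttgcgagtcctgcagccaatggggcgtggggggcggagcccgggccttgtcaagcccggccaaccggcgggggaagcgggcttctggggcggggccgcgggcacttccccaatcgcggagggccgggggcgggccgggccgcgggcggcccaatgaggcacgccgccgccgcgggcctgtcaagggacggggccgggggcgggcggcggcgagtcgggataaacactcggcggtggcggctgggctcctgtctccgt
Mxd3: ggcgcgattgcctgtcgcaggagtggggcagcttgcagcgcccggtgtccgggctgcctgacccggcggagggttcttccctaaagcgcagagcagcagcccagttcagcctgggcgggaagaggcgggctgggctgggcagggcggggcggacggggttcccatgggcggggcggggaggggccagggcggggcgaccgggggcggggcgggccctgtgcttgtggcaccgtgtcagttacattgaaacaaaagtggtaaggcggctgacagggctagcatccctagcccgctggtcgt

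Levels are given as CPM, counts scaled to a common library size, here with TMM factors (trimmed mean of M values) from edgeR. High was compared with Low by edgeR's quasi-likelihood test with sex as a covariate, and Benjamini-Hochberg adjusted p-values were taken over all tested genes with a threshold of 0.05. By this test 5 of the 9 tested members were higher and 1 was lower in Cyto-ID High. Among all tested genes 23.4% were higher and 25.3% lower, or 48.7% in all. The members that rose were Mxd1, Mxi1, Mlx, Max and Mycl, and the one that fell was Mxd3. Myc, Mxd4 and Mnt did not pass, and their values depended on how the libraries were scaled. With the animal as a block the count of members was again 5 higher and 1 lower, beside 25.4% and 28.5% of all genes (53.8% in all). The TMM-scaled ranges of the fractions were apart for 4 members with High above and 1 with Low above, beside 23.6% and 24.9% of all tested genes.

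**Figure D1:**
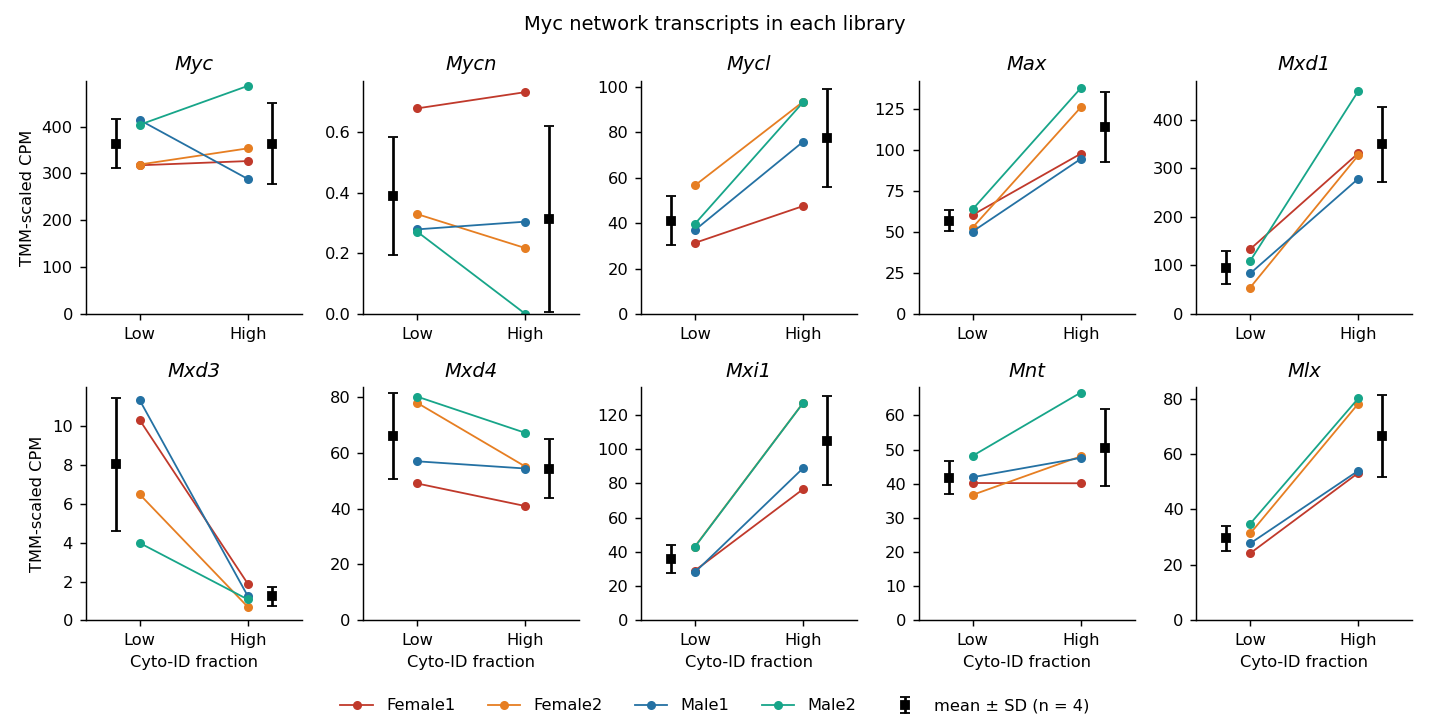
TMM-scaled CPM of each member (y axis, linear) in the Cyto-ID Low and High fraction (x axis), with a line for each animal and the mean ± SD of the 4 libraries as a black square with bars. Max, Mxd1, Mxi1 and Mlx have separate ranges with High above Low, Mxd3 has separate ranges with Low above High, and the other members overlap. The Mxi1 points of Female2 and Male2 lie on each other.

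Mxd1 had the largest increase. This repressor, first described as a Max partner that appears when cells differentiate, was at 133, 54.4, 83.4 and 109 CPM in the Low libraries of Female1, Female2, Male1 and Male2. In the High libraries of the same animals it was at 331, 327, 279 and 459 CPM. Every High library lay above every Low library, and the smallest increase was in Female1. The log2 fold change was 1.87 (SE 0.28, 95% interval 1.23 to 2.51, edgeR adjusted p 0.000465), a 3.66-fold rise from 95.2 ± 34.0 to 349 ± 77 CPM (SD, n = 4 each).

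Mxi1, another repressive Max partner, was next. Its Low libraries were at 29.1, 43.1, 28.1 and 42.9 CPM and its High libraries at 76.6, 127, 88.8 and 127 CPM, in the same order of animals. The ranges did not overlap, and Female2 and Male2 were the higher animals in both fractions. The log2 fold change was 1.55 (SE 0.23, edgeR adjusted p 0.000425). The High minus Low differences in log2 CPM lay between 1.395 and 1.658 in the 4 animals, the smallest spread between animals of the 9 tested members (SD 0.11).

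Mxd3 went the other way. This member of the Mxd family is known from cells in S phase. It had 334, 236, 365 and 132 counts in the Low libraries of Female1, Female2, Male1 and Male2, or 10.3, 6.49, 11.3 and 3.98 CPM. The High libraries had 49, 16, 33 and 21 counts, or 1.89, 0.697, 1.26 and 1.08 CPM. The ranges did not overlap and the log2 fold change was −2.69 (SE 0.41, 95% interval −3.60 to −1.78, edgeR adjusted p 0.00045), a 6.47-fold difference. Among the Low libraries Female1 and Male1 were high in Mxd3 and also in the summed level of 12 proliferation genes (1286 and 1281 CPM), while Female2 and Male2 were lower in both (792.2 and 479.7 CPM for the sum). The High libraries had sums of 103.7 to 259.3 CPM. How much of the Mxd3 difference goes with the number of dividing cells was not tested.

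Mxd4 and Mnt complete the repressive arm. Mxd4 is known as an Mxd gene of resting and differentiating cells, and Mnt is expressed in most cell types, cycling ones included. Mxd4 was at 49.0, 77.8, 56.9 and 80.1 CPM in Low and at 40.9, 55.0, 54.3 and 67.1 CPM in High. It was lower in High in all 4 animals, but the ranges overlapped and the test was not passed (log2 fold change −0.29, 95% interval −0.73 to 0.15, edgeR adjusted p 0.261). Mnt was at 40.2, 36.7, 41.9 and 48.1 CPM in Low and at 40.1, 48.0, 47.5 and 66.7 CPM in High, and did not pass either (0.27, 95% interval −0.06 to 0.60, edgeR adjusted p 0.164). Within the Mxd family the direction was thus not shared: Mxd1 and Mxi1 were higher, Mxd3 was lower and Mxd4 had a negative value, under each of the 4 scalings tried.

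The shared partner Max was at 60.3, 52.6, 50.2 and 63.8 CPM in the Low libraries and at 97.7, 126, 94.5 and 138 CPM in the High libraries of Female1, Female2, Male1 and Male2. All High libraries lay above all Low libraries. Max rose 2.01-fold, from 56.7 ± 6.4 to 114 ± 21 CPM (SD, n = 4 each; log2 fold change 1.00, SE 0.17, edgeR adjusted p 0.000852). Mlx, the partner of the glucose-sensing branch, was at 24.2, 31.3, 27.8 and 34.9 CPM in Low and at 53.2, 78.2, 54.0 and 80.1 CPM in High, again without overlap. Its rise was 1.17 on the log2 scale, with an SE of 0.19 and an edgeR adjusted p of 0.000687. Exons of Psmc3ip on the other strand cover 19.3% of the exonic length of Mlx. Psmc3ip was at 4.43 ± 1.11 and 2.61 ± 1.19 CPM in Low and High (SD, n = 4 each). Exons of Prelid1, at 184 ± 24 and 330 ± 78 CPM, cover 4.43% of Mxd3 on the other strand. Whether the counting used the strand is not given in the sources used here, and the part of these overlaps was not tested.

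Myc itself, which drives growth and division, did not pass the test. It was at 317, 319, 414 and 404 CPM in the Low libraries of Female1, Female2, Male1 and Male2 and at 326, 354, 288 and 487 CPM in the High libraries. High exceeded Low in Female1, Female2 and Male2 and lay below it in Male1, so the animals did not share a direction. The means were 364 ± 53 and 364 ± 86 CPM (SD, n = 4 each), with a log2 fold change of 0.01 (95% interval −0.40 to 0.42, edgeR adjusted p 0.976). The interval does not show that the levels were equal.

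Mycl, a relative of Myc that also acts with Max, was at 31.3, 56.6, 37.0 and 39.7 CPM in Low and at 47.5, 93.5, 75.9 and 93.3 CPM in High. Every animal was higher in High, but the Low library of Female2 lay above the High library of Female1. The log2 fold change was 0.91 (SE 0.25, edgeR adjusted p 0.0142). Without the Low library of Male1 the edgeR adjusted p was 0.0505 and without the High library of Female2 it was 0.0666. Leaving out 1 of these libraries thus took the call away, but leaving out both libraries of Female2 did not. Mycn, the family member of embryonic and neural tissue, had 9 to 22 counts in the Low libraries and 0 to 19 in the High libraries, all at or under 0.733 CPM, and was too low for a comparison.

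Scaling changed what could be said of 4 members. The TMM factors were 0.6791 to 0.9442 in High and 1.16 to 1.304 in Low, with no overlap. With total counts alone the median log2 fold change of all tested genes moved by −0.55, from −0.09 to −0.64, and 12.6% of the genes were higher and 49.1% lower (61.7% in all). On that scale 4 members were higher (Max, Mxd1, Mxi1 and Mlx) and 4 lower (Myc, Mxd3, Mxd4 and Mnt). Myc then had 391, 415, 487 and 468 CPM in Low and 308, 279.6, 258 and 330 CPM in High, with no overlap, as for 60.3% of all genes on that scale. The change of Myc was −0.58 on the log2 scale, with an edgeR adjusted p of 0.00381. Mxd4 changed by −0.87 (edgeR adjusted p 0.00279), Mnt by −0.31 (edgeR adjusted p 0.0202), and Mycl lost its call (0.32, edgeR adjusted p 0.271). Relative to the median of all genes the members hardly moved: Myc lay 0.10 above it with TMM and 0.06 above it with total counts, and Mxd1 1.96 and 1.93 above it.

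**Figure D2:**
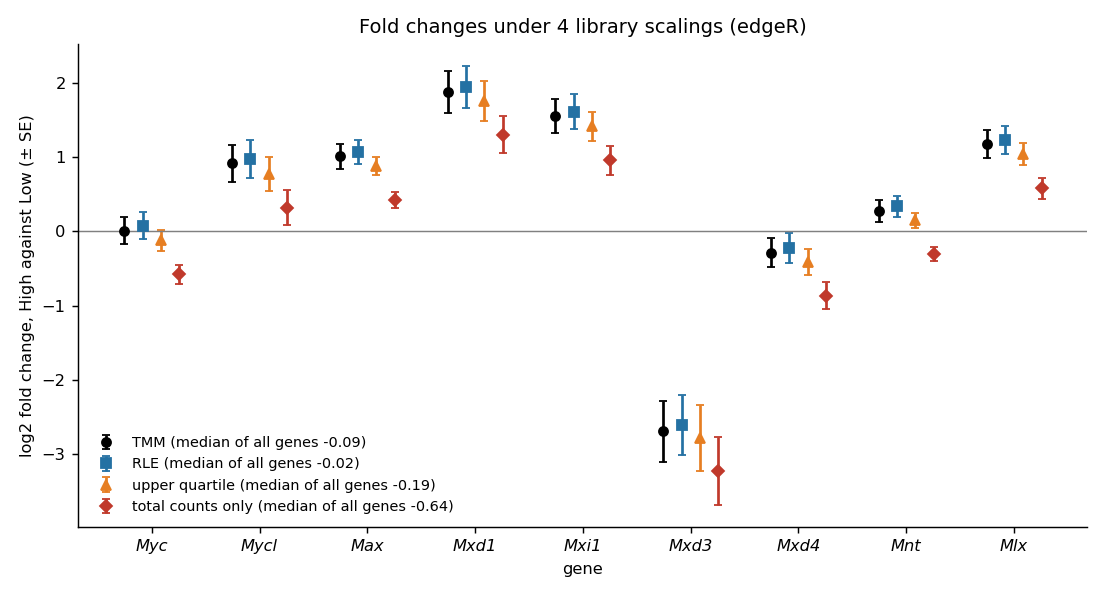
Log2 fold change of the 9 tested members, High against Low (y axis, ± SE from edgeR), under TMM, RLE, upper-quartile and total-count scaling. All members shift down together with total counts, by about as much as the median of all genes (−0.09 with TMM, −0.64 with total counts); Myc and Mnt change sign, and Max, Mxd1, Mxi1 and Mlx stay above 0.

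Ratios of members within a library do not depend on the scaling. Counts of Mxd1 per count of Myc were 0.42, 0.171, 0.201 and 0.271 in the Low libraries of Female1, Female2, Male1 and Male2 and 1.01, 0.924, 0.966 and 0.943 in the High libraries. The Low libraries spread more than the High libraries (0.266 ± 0.111 against 0.962 ± 0.039, SD, n = 4 each). Counts of Myc per count of Max were 6.47 ± 1.27 in Low and 3.18 ± 0.32 in High, and counts of Mxd1 per count of Max were 1.66 ± 0.48 and 3.07 ± 0.37 (SD, n = 4 each). These ratios compare raw counts and are not corrected for length, so only their change between fractions can be read. They combine members already described and were not tested.

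Per kilobase of exonic length (GENCODE M21), Myc stood above all other members in both fractions, at 134 ± 19 CPM per kb in Low and 134 ± 32 in High (SD, n = 4 each). In Low the order after Myc was Max, Mlx, Mxd1, Mycl, Mnt, Mxd4, Mxi1 and Mxd3, from 15.8 to 3.39 CPM per kb, where each overlapped its neighbour in range. Mycn stood last, at 0.118 CPM per kb. In High the order was Mxd1 at 49.3 ± 10.9, Mlx at 33.2 ± 7.4, Max at 31.7 ± 5.9, Mycl at 19.2 ± 5.4, Mxi1 at 15.4 ± 3.8, Mnt at 10.9 ± 2.4, Mxd4 at 6.41 ± 1.26 and Mxd3 at 0.52 ± 0.21 CPM per kb. Mxd1, Mlx and Max overlapped as neighbours there, as did Mycl, Mxi1 and Mnt, and Mxd4 and Mxd3 stood apart from the members beside them. Summed over the 10 members, the Myc family took 67.4% ± 3.2 of the level per kb in Low and 50.9% ± 1.2 in High, and the Mxd family with Mnt 18.3% ± 2.3 and 27.5% ± 0.7 (SD, n = 4 each). The exonic length counts all annotated exons, so levels of genes with long minor isoforms are set too low.

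**Figure D3:**
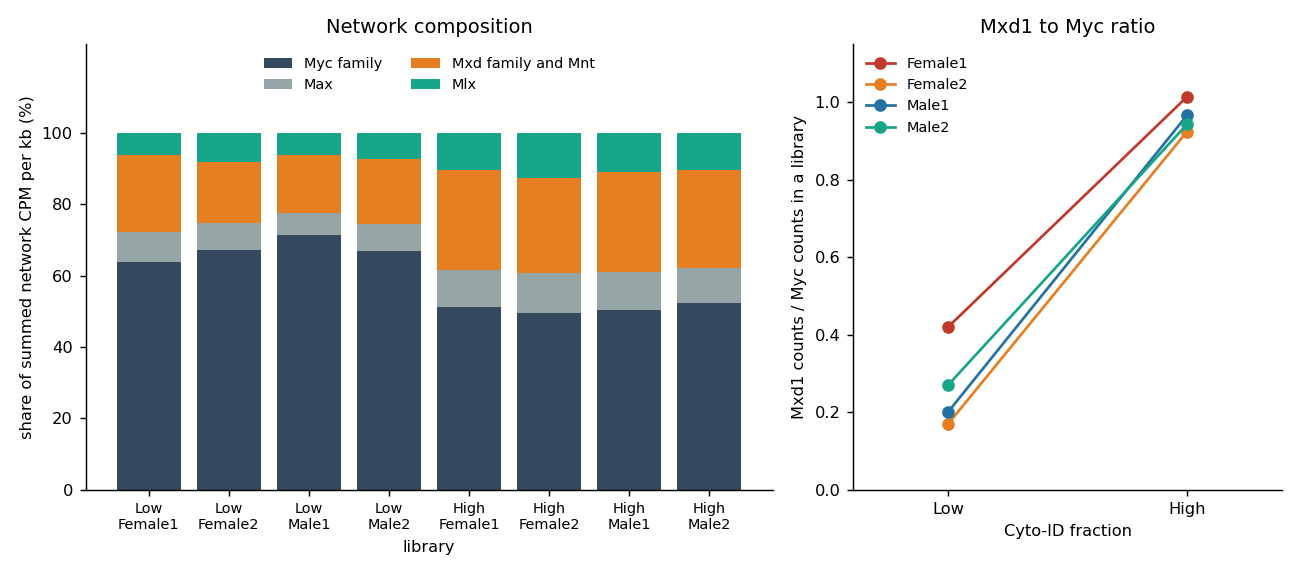
Left, share of the summed CPM per kb of the 10 members (y axis, %) taken by the Myc family, Max, the Mxd family with Mnt, and Mlx in each of the 8 libraries. Right, Mxd1 counts per Myc count in each library, with a line for each animal. The Myc family takes 63.8% to 71.5% in the Low libraries and 49.6% to 52.3% in the High libraries, and the Mxd1 to Myc ratio is higher in High in all 4 animals.

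The fractions also differed in the levels of markers of the epithelial layers, and the differences of the network stand beside that. The summed level of 7 basal keratinocyte markers was 20550 to 24410 CPM in Low and 2666 to 4369 CPM in High, and that of 7 suprabasal markers was 8708 to 25200 and 137200 to 235900 CPM. Krt5, a keratin of the basal layer, changed by −3.38 and Krt13, a keratin of the layers above it, by 3.07 on the log2 scale (edgeR adjusted p 1.83e-05 and 6.16e-05). The basal integrin gene Itgb4 changed by −3.62, and the suprabasal genes Cnfn and Krt4 by 3.86 and 3.75. Itgb1, which encodes the sorted surface protein, changed by −2.44 (edgeR adjusted p 2.16e-05). In bulk libraries fewer cells of a type and less RNA per cell cannot be told apart. Among the Low libraries Mxd1 was highest in Female1 and Male2 and the suprabasal sum in Male2 and Female2 (25200 and 19290 CPM, beside 12680 and 8708 in Female1 and Male1). Among the High libraries Male2 was highest in both, with a suprabasal sum of 235900 CPM, and Male1, lowest in Mxd1, had the next to lowest sum (139400 CPM). Thus the High libraries, sorted as basal cells, held less of the basal and more of the suprabasal markers. The part of the layers in the network's differences was not tested.

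Markers of other cell types were summed in the same way. These levels in Low and High ran from 47.0 to 79.1 and 8.23 to 78.8 CPM for 6 leukocyte markers, from 308 to 480 and 36.6 to 456 CPM for 6 fibroblast markers, from 9.63 to 19.4 and 1.39 to 22.3 CPM for 5 endothelial markers, from 16.4 to 31.4 and 1.29 to 43.9 CPM for 5 muscle markers, and from 5.996 to 8.52 and 1.39 to 8.14 CPM for 3 melanocyte markers. The lowest High library of each was that of Male2. The sum of 6 gastric markers was 17.1 CPM in the Low and 103.4 CPM in the High library from Female2 and at most 0.977 CPM elsewhere. None of these markers was at 0 in all libraries. Although the sums overlapped, 3 single markers passed, of which Pmel and Cd52 are named after their values were seen. The fibroblast marker Dcn (decorin) was at 114 ± 35 CPM in Low and 15.3 ± 6.5 CPM in High (SD, n = 4 each), with ranges apart, a log2 change of −2.87 and an edgeR adjusted p of 9.15e-05. The other 5 fibroblast markers did not pass. The melanocyte marker Pmel was lower (−0.92, edgeR adjusted p 0.0147) and the leukocyte marker Cd52 higher (0.93, edgeR adjusted p 0.0189), both under 5 CPM on average. Without the 2 libraries of Male2 the network again had 5 members higher and 1 lower, beside 20.4% and 20.7% of all genes (41.1% in all). Without those of Female2 the count of members was the same, beside 21.6% and 21.7% (43.3% in all). The part of these cells in the results was not tested further.

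Sex was tested next. In a model with an interaction of sex and fraction 0 of the 9 tested members passed, beside 0 of 17344 genes (0%), and 0 members and 19 genes (0.11%) had an unadjusted p under 0.05. The count of genes was not stable: it was 1197 without the High library of Male1 and 49 to 221 without any other single library, with 0 genes called each time. Without the High library of Male1 the filter let Mycn in, with an unadjusted p of 0.0474 and an edgeR adjusted p of 0.73. Mxd1 differed by 1.95 log2 CPM in females and 1.90 in males, and Mxd3 by −2.75 and −2.46. The largest gap was that of Mycl, at 0.66 in females and 1.13 in males (interaction 0.46, SE 0.52). With the animal as a block 0 members and 0 of 17344 genes passed, and 0 members and 38 genes had an unadjusted p under 0.05. With 2 animals of each sex, and without the animal in the model, the standard errors of the interaction were 0.32 to 0.82. The narrowest 95% interval, that of Mnt, ran from −0.59 to 0.88 and the widest, that of Mxd3, from −1.90 to 1.87, so sizeable differences between the sexes remain within them.

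Genes around the network were then described from lists written from general knowledge, with earlier results of these data known. The list counts are therefore a description and not an independent comparison. The 10 lists hold 158 genes, of which 156 were tested, and 31 of these were higher and 73 lower in High, where 23.4% of all genes were higher and 25.3% lower. The split depended on the scaling, with 28 higher and 90 lower under upper-quartile factors (21.6% and 30.2% of all genes, 51.8% in all) and 13 higher and 119 lower under total counts (12.6% and 49.1% of all genes). Of the 3 other factors that pair with Max or Mlx, Mlxipl (ChREBP) had 3.35 ± 1.36 CPM in Low and 0.534 ± 0.134 CPM in High (SD, n = 4 each). Its log2 change was −2.64, with an edgeR adjusted p of 0.000367. The filter of at least 10 counts in every library left Mlxipl out. Mlxip (MondoA) changed by −0.38 (edgeR adjusted p 0.0424, and 0.0731 with RLE scaling). Its adjusted p was also above 0.05 without the Low library of Male2 (0.0693) or the High library of Female1 (0.116), Female2 (0.0565) or Male1 (0.122). Mga, a Max partner with a T-box, was at −0.30 (edgeR adjusted p 0.135).

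Cofactors of both arms were counted in the same way. Of 14 Myc coactivators 5 were lower and 0 higher, with a median log2 fold change of −0.35 beside −0.09 for all tested genes, 25.3% of which were lower. The count lower was 9 with at least 10 counts in every library (29.6% of all genes then lower, 28.3% higher, 58% in all), 10 with upper-quartile factors (30.2% of all genes lower) and 14 with total counts (49.1% of all genes lower). The largest were the ATPases Ruvbl1 (−1.48) and Ruvbl2 (−1.08, edgeR adjusted p 0.000101), which belong to the TIP60 complex. Of 17 genes on the corepressor list 3 were higher and 6 lower, with a median of −0.13, beside 23.4% and 25.3% of all genes. With total counts 1 was higher and 13 lower with a median of −0.71, beside 12.6% and 49.1% of all genes and their median of −0.64. Both Sin3 scaffolds, which the Mxd proteins and Mnt recruit, passed in opposite directions: Sin3a changed by −0.78 (SE 0.15, edgeR adjusted p 0.00181) and Sin3b by 0.55 (SE 0.13, edgeR adjusted p 0.00514), though with total counts Sin3b was at −0.01 (edgeR adjusted p 0.928). Zbtb17 (Miz-1), through which Myc represses genes, was counted on this list although it acts with Myc. It is 1 of the 3 higher genes, and the 1 higher with total counts. Zbtb17 rose from 49.9 ± 3.9 to 100.9 ± 20.9 CPM (SD, n = 4 each; log2 fold change 1.00, edgeR adjusted p 0.000384). Suds3, a Sin3 subunit, changed by 0.59 (0.01 with total counts), and Sap30, another, by −1.05.

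Of 16 genes that act on the stability of Myc protein 5 were higher and 9 lower, beside 23.4% and 25.3% of all genes. With total counts 1 was higher and 11 lower, beside 12.6% and 49.1%. Cip2a, an inhibitor of the phosphatase PP2A that stabilises Myc, fell by 2.35 on the log2 scale and the mitotic kinase Aurka by 2.01 (edgeR adjusted p 0.00018 and 0.000921). The PP2A subunit Ppp2r5a rose by 1.04 (edgeR adjusted p 0.00109) and the ubiquitin ligase Stub1 by 0.83 (0.25 with total counts, edgeR adjusted p 0.053), while Fbxw7, the ligase that recognises phosphorylated Myc, was at −0.42 (edgeR adjusted p 0.0366, and 0.0579 with RLE scaling). The adjusted p of Fbxw7 was also above 0.05 without the Low library of Female1 (0.0543) or Male2 (0.0584) or the High library of Female1 (0.0839) or Male1 (0.116). Exons of Jmjd8 on the other strand cover 1084 of the 2561 exonic bases of Stub1. Of 16 genes that act on Myc or Mxd1 transcription 3 were higher (18.8%) and 6 lower (37.5%), beside 23.4% and 25.3% of all genes. With total counts 2 were higher and 11 lower, beside 12.6% and 49.1%. Prdm1 (Blimp1), a repressor of Myc, rose by 2.49 and Klf4, a factor of differentiating epithelium, by 1.62, whereas Lrig1 fell by 1.71 and Smad3 by 1.38 (edgeR adjusted p 3.09e-05 and 0.000103).

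**Figure D4:**
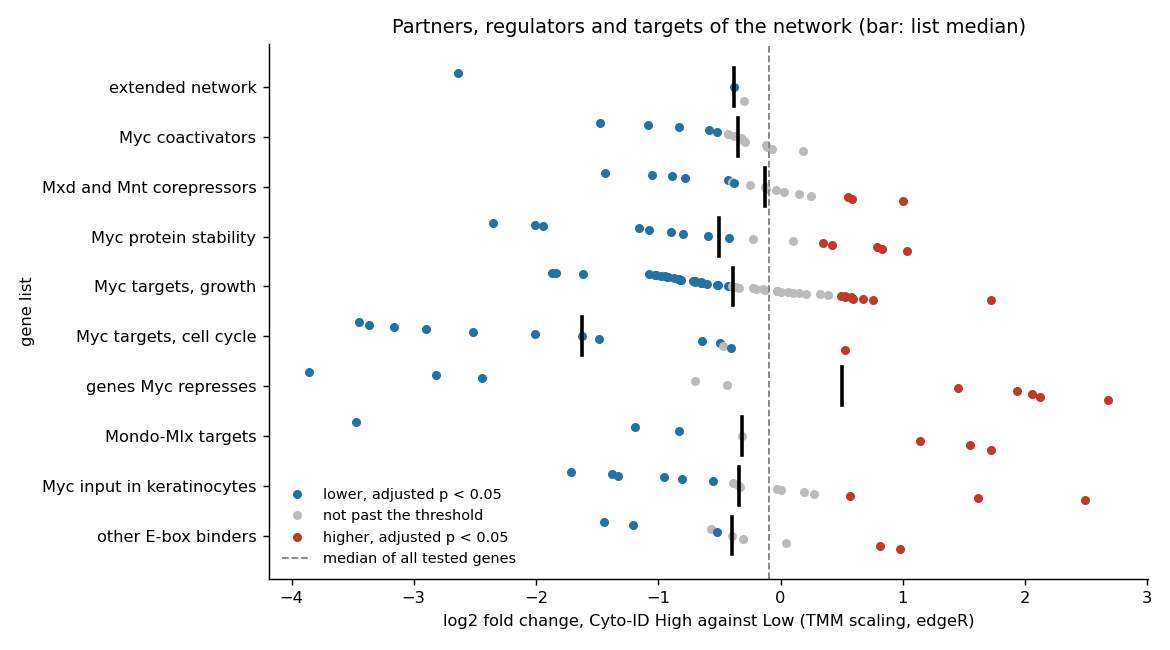
Log2 fold change of each tested gene of the 10 lists (x axis, TMM scaling), 1 point per gene, coloured by its edgeR call, with a black bar at the median of the list and a dashed line at the median of all tested genes (−0.09). The cell-cycle targets lie furthest to the left (median −1.62), while growth targets spread on both sides of 0.

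Known targets of Myc were grouped by function. Of 13 cell-cycle targets 11 were lower and 1 higher, beside 25.3% and 23.4% of all genes, and their median was −1.62 beside −0.09. With RLE scaling 9 were lower and 1 higher, beside 4062 and 4394 of 17344 genes. With total counts 12 were lower and 0 higher, beside 49.1% and 12.6% of all genes. Ccnd2 (cyclin D2) fell from 214 ± 80 to 21.03 ± 10.06 CPM (SD, n = 4 each; log2 fold change −3.36, SE 0.32, edgeR adjusted p 3.12e-05), Cdca7 fell by 3.16, and Cdk4 changed by −0.40 (edgeR adjusted p 0.0354, and 0.0776 with RLE scaling). Leaving out the Low library of Female2 (0.1001) or Male2 (0.114), or the High library of Female1 (0.0542), Female2 (0.0754) or Male1 (0.105), also took the adjusted p of Cdk4 above 0.05. The exception was the phosphatase Cdc25a, at 0.52 (edgeR adjusted p 0.0251), which was at −0.06 with total counts (edgeR adjusted p 0.694) and above the threshold without the High library of Female2 (0.0894) or Male2 (0.0747). Of 12 proliferation genes all 12 were lower, Mki67 by 3.08 on the log2 scale (edgeR adjusted p 0.000567) and Top2a by 2.97. How much of the difference of the cell-cycle targets goes with the number of dividing cells was not tested.

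Of 52 growth targets, which serve ribosome assembly, nucleotide synthesis and metabolism, 25 were lower (48.1%), 10 higher (19.2%) and 17 did not pass, with a median of −0.39. Of all genes 25.3% were lower and 23.4% higher. The nucleolar protein Ncl fell from 1021 ± 76 to 539 ± 81 CPM (SD, n = 4 each; log2 fold change −0.92, edgeR adjusted p 0.00114). Tcof1, a factor of ribosomal RNA synthesis, fell by 1.84 and Ppat, of purine synthesis, by 1.87. Also 2 glycolytic genes on the list were higher, Hk2 by 1.72 (edgeR adjusted p 9.39e-05) and Ldha by 0.76 (edgeR adjusted p 0.00182, and 0.201 with total counts). The other 8 that were higher, named after their values were seen, lay between 0.50 and 0.67 and were Nme1, Bop1, Aimp2, Rrp12, Pa2g4, Bysl, Eif2s1 and Nme2. Of these Bop1, Rrp12 and Bysl serve ribosome assembly, so genes of that function were found in both directions. Odc1, the polyamine enzyme often used as a readout of Myc, was at 111 ± 26 and 109 ± 21 CPM (SD, n = 4 each), a change of −0.03 (edgeR adjusted p 0.92). With total counts 39 growth targets were lower and 1 higher, on a scale where 49.1% of all genes were lower and 12.6% higher and the median of all genes was −0.64.

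Of 10 genes that Myc is known to repress 5 were higher and 3 lower, beside 23.4% and 25.3% of all genes. Those higher included the cell-cycle inhibitor Cdkn1a, from 287 ± 90 to 1247 ± 346 CPM (SD, n = 4 each; log2 fold change 2.12, SE 0.26, edgeR adjusted p 0.000115), and Ndrg2 (2.68). The 3 lower ones, Col17a1 (−3.86), Itga6 (−2.82) and Itgb1, are adhesion genes of the basal layer. The median of the list was 0.50, and became −0.07 with total counts and 1.42 when only genes with at least 10 counts in every library were kept. Of 7 tested targets of Mlx with its glucose-sensing partners 3 were higher and 3 lower, where 48.7% of all genes passed in either direction. The paralogs Txnip and Arrdc4, both known to respond to glucose through Mlx, went opposite ways. Txnip fell from 248 ± 76 to 22.2 ± 0.7 CPM (SD, n = 4 each; log2 fold change −3.48, SE 0.24, edgeR adjusted p 1.3e-05), and Arrdc4 rose from 46.5 ± 6.2 to 102 ± 13 CPM (1.14, SE 0.14, edgeR adjusted p 0.000134). Exons of Gm15441 overlap Txnip on the other strand. Pfkfb3, a regulator of glycolysis, rose by 1.55 and Khk (ketohexokinase) fell by 1.19.

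The 10th list holds other proteins that bind CACGTG. Of its 9 tested genes 2 were higher (22.2%) and 3 lower (33.3%), beside 23.4% and 25.3% of all genes. With total counts 1 was higher and 7 were lower, beside 12.6% and 49.1%. Tfe3, a lysosomal regulator, rose by 0.98 and Clock by 0.81 (edgeR adjusted p 0.00159, and 0.17 with total counts). Arntl, the partner of Clock, fell by 1.20 and Usf1 by 0.52 (edgeR adjusted p 9.31e-05 and 0.00962, the latter 0.0668 without both libraries of Female2). CACGTG was found in a promoter window of 27.3% of the 44 growth targets with an entry, 9.09% of the 11 cell-cycle targets and 50% of the 8 targets of Mlx. It was found in 7.69% of the 13 genes of the corepressor list with an entry, and in 0 of 7 genes that Myc represses and 0 of 10 proliferation genes. The shares of the other 5 lists, of 3 to 15 genes with an entry, were 12.5% to 33.3%. Among tested genes its share was 11.5% of those higher, 11.6% of those lower and 11.02% of those that did not pass. These are counts of letters in the windows and say nothing of binding.

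A last comparison was by pattern. The genes whose log2 CPM followed Myc most closely over the 8 libraries were Elk1 (Pearson r 0.97), Atpif1 (0.95), Tmem258 (0.95), Pfn1 (0.94) and Cct5 (0.93), of 9999 genes with a mean of at least 5 CPM. Like Myc they did not pass between the fractions, with edgeR adjusted p from 0.642 to 0.987. In all, 9 of the 9999 genes had an r over 0.9 with Myc. For Mxd1 there were 1419, led by Shb, Cadm4, Ndrg1, Clip1 and Grpel1 at 0.99 to 1.00, all higher in High. Ndrg1 was also on the list of genes that Myc represses. The r over all libraries contains the difference between fractions and the shared scaling of each library, and is given as a description.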

How the data were processed

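RNA of both sorted fractions was sequenced in bulk, and the authors deposited raw counts by gene symbol in a single table with 8 libraries. The unit follows from whole numbers with unequal totals. STAR 2.7.3, DESeq2 and build GRCm38 are named in the submitters' processing notes. The counting tool, annotation and strandedness are not given in the sources used here. Columns were matched to samples by animal and fraction.

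The counts were fitted with edgeR 4.0.16 under R 4.3.3, using filterByExpr, TMM and the quasi-likelihood functions, sex being a covariate, Benjamini-Hochberg over 17344 genes, two-sided, threshold 0.05. Standard errors and intervals came from the F statistic, and log2 CPM used a prior count of 2. The fits were also run on simulated counts in which few genes changed. That run does not test them where as many genes change as here, and its outcome is not reported here. Lengths and overlaps came from GENCODE M21. Intervals and spreads cover differences between libraries, and molecular identifiers are not given in the sources used here.

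Same-named libraries come from 1 animal. Their deviations from the fraction means correlated at 0.43, 0.32, −0.02 and 0.28 across genes in Female1, Female2, Male1 and Male2, so pairing rests on the names. The High library of Male1 correlated best with the Low library of Female1 (0.35). Alternatives were RLE, total counts, 2 other filters, DESeq2 1.42.0, limma-voom (limma 3.58.1), no covariate, the animal as a block, and each library left out. Upper-quartile factors and leaving out Male2 or Female2 were added after seeing the data. Members and lists were chosen with earlier results of these data known. Besides the members, named genes are 16 fixed genes and, in each list, up to 2 called genes with the largest change in each direction and a mean of at least 5 CPM. A gene that this rule also names is not reported here. Marker lists were summed without a filter.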

Additional observations from a re-analysis of the deposited data

Results flagged for a closer look

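A single member had a library that stood apart. Mycn was at 0.679 CPM, with 22 counts, in the Low library of Female1, while the other Low libraries had 9 to 12 counts. Its gap to the next library was 0.857 of the range of the 4, above the critical value of Dixon's criterion. With 20 groups examined (10 members in 2 fractions), about 1 such case comes from chance.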

How the results depend on the processing

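The network had 5 to 8 members past the threshold under 19 alternatives, and 5 or 6 when each library was left out. Max, Mxd1, Mxi1, Mlx and Mxd3 kept direction and call in all 19. With the animal as a replicate block 6 members passed (5 higher, 1 lower), of 9336 genes called, and no member's call changed. Over all genes 7269 to 10708 were called (7269 to 8106 with a library left out), and 89 to 132 list genes (92 to 105). With total counts 20.5% of the calls were higher in place of 48%. Myc, at 0.01, took a negative sign in 12 of the 19 alternatives: −0.12 with upper-quartile factors, −0.033 without a filter, −0.019 with at least 10 counts in every library, −0.012 with limma-voom, −0.015 with the replicate block, −0.057 without Male2, −0.024 without Female2 and −0.14 to 0.16 with a library left out. It passed only with total counts (−0.58), where Mnt (−0.31), Cdc25a (−0.062), Sin3b (−0.013) and the median of the genes Myc represses (−0.073) also changed sign. Odc1 was at 0.043 with RLE and with DESeq2, 0.067 without Male2, and −0.17 to 0.11 with a library left out. The median of the Mlx targets was 0.37 without a filter, and that of the genes Myc represses was 1.42 under the stricter filter of 10 counts. The cause of these was not tested, apart from the shift of all genes with total counts. Depth limits Mycn and, in the High libraries, Mxd3 and the list gene Mlxipl.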
